A study of Macaca mulatta with 12 samples.

Results

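The comparison of 4 functionally regressed late luteal phase corpora lutea with 4 mid-late ones was taken through the pathways and gene families that lie beyond steroid synthesis, cholesterol supply, the cell cycle and macrophage genes. The 8 arrays are all those that the sample titles place in these groups, of 12 in the series, and all probe sets other than array controls entered the test. The mid-late corpora lutea, which the labels call the baseline, were collected 10 to 12 days after the surge of luteinizing hormone (LH). The late regressed ones were collected 14 to 16 days after it, with serum progesterone below 0.5 ng/ml. The 4 remaining arrays, late functional, come from the same 14 to 16 days with serum progesterone above 1.5 ng/ml. They entered the limma fit, so its SEs and p-values draw on their spread too, and the choice of each gene's probe set. No difference from them was tested here, and their levels are given as values only. All animals were rhesus macaques with normal menstrual cycles, and no agent is named for any group. Each array measured RNA of 1 flash-frozen whole corpus luteum on an Affymetrix rhesus array. The arrays of a group are biological replicates per the labels, but the labels do not state that each came from a different animal, and the p-values measure the spread between these arrays. Sampling day and loss of progesterone differ together between the groups compared, so they cannot be told apart here.

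The corpus luteum is a short-lived gland that forms from the ruptured follicle and makes progesterone under the drive of LH, which acts through cyclic AMP. Without a pregnancy the gland first stops making progesterone, called functional regression, and later loses its cells and vessels, called structural regression. Luteal tissue holds large and small steroidogenic cells among endothelial cells, pericytes, fibroblasts and leukocytes, and much of its biology turns on growth factors, matrix, lipid use, autophagy and cell death.

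Values are deposited RMA values on the log2 scale, in which 1 unit is a 2-fold change. Differences are late regressed minus mid-late, with the SE of the limma fit, and every adjusted p is limma's with Benjamini-Hochberg adjustment over all 52707 probe sets. A gene was called at an adjusted p below 0.05. A call is termed held when the groups did not overlap, the higher group mean lay above the 95th percentile of a low-signal probe set group whose identifiers start with NC (4.64), and the call was made in each of the 8 fits that left out 1 of these 8 arrays. A level below 4.64 in both groups is termed low signal.

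The late regressed arrays were the most uneven group. On the first principal component, which took 40.8% of the variance, arrays 2 and 3 had scores of 93.2 and 81.6, where the scores of the remaining 10 ran from -43 to 12.6. The RNA of array 2 showed a 3′ minus 5′ control difference of 2.52, while the other 11 arrays had 0.46 to 0.70. The NC mean was lower in late regressed than in mid-late arrays by 0.14, without overlap (two-sided exact permutation p = 0.0286, the smallest that 4 against 4 arrays can give). With the NC mean as a covariate no probe set was called by limma, though 4072 had an unadjusted p below 0.05. The part of the NC shift in the results was not tested. Of the luteal marker list, 6 of 11 genes were measured, all at high signal on the mid-late arrays. Their mean ran from 11.4 to 11.65 on mid-late and from 8.75 to 10.69 on late regressed arrays. In whole tissue, fewer cells of a type and less RNA per cell cannot be told apart.

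Of 12993 genes with a symbol, 1022 were called higher in late regressed corpora lutea (7.87%) and 723 lower (5.56%). Held calls were fewer, with 330 genes higher (2.54%) and 151 lower (1.16%). Of the 481 held calls, 59 higher and 44 lower ones reached 2-fold. When late regressed arrays 2 and 3 were both left out, 222 genes were called higher (1.71%) and 111 lower (0.854%), and 227 of the 481 held calls were called. In a fit of only these 2 groups 394 of the 481 were called. The late regressed mean lay below 4.64 for 27 of the held decreases. All 481 kept their sign on arrays 1 and 4 alone, which the absence of overlap in a held call requires. For 413 of them the difference was smaller in size there, but the calls had been chosen on all 4 arrays. The median difference over all genes was -0.02. Over all probe sets 2854 were called higher and 2428 lower, so that 54% of the calls were higher, against 67.6% with the arrays centred on their medians and 45.4% after a renewed quantile normalization.

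**Figure D1:**
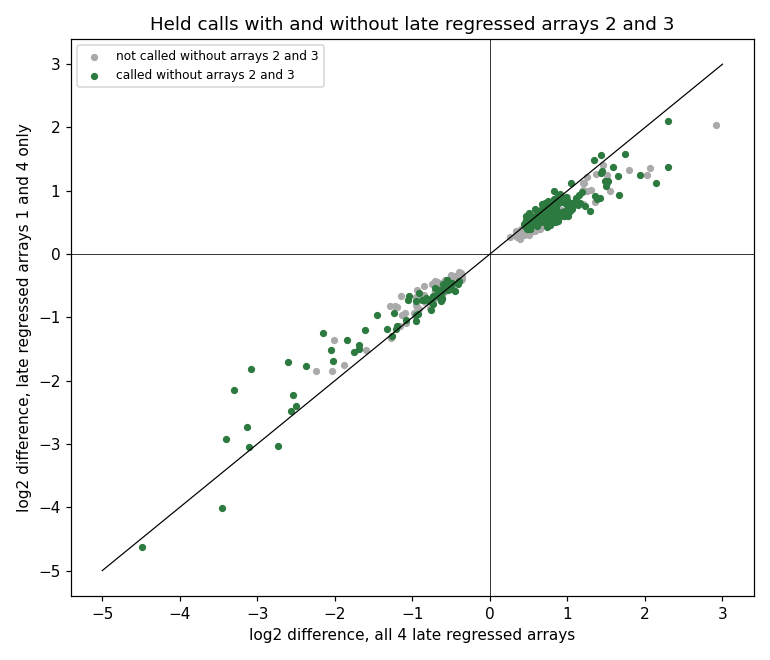
Each of the 481 held calls is a point, with the log2 difference over all 4 late regressed arrays on the x axis and that over arrays 1 and 4 alone on the y axis, and the line marks equality. Points lie nearer to 0 on the y axis for 413 genes, and the 227 genes in green were called from arrays 1 and 4 alone.

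The pathways were described through 63 gene lists with 2911 distinct measured genes, of which 236 were called higher and 135 lower. These shares lie close to the 7.87% and 5.56% of all genes. Without late regressed arrays 2 and 3 the counts were 51 and 28, where 1.71% and 0.854% of all genes were called. In 35 lists more members were higher than lower, in 17 more were lower, and 11 were balanced, 4 of which had no call. Over all genes, too, more were higher than lower, 1022 against 723. Among called list genes, 5 of the 236 higher and 25 of the 135 lower were low signal. The lists with the highest shares of higher members were autophagy, splicing and chromatin, and those with the highest shares of lower members were glycolysis and growth factor signalling.

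**Figure D2:**
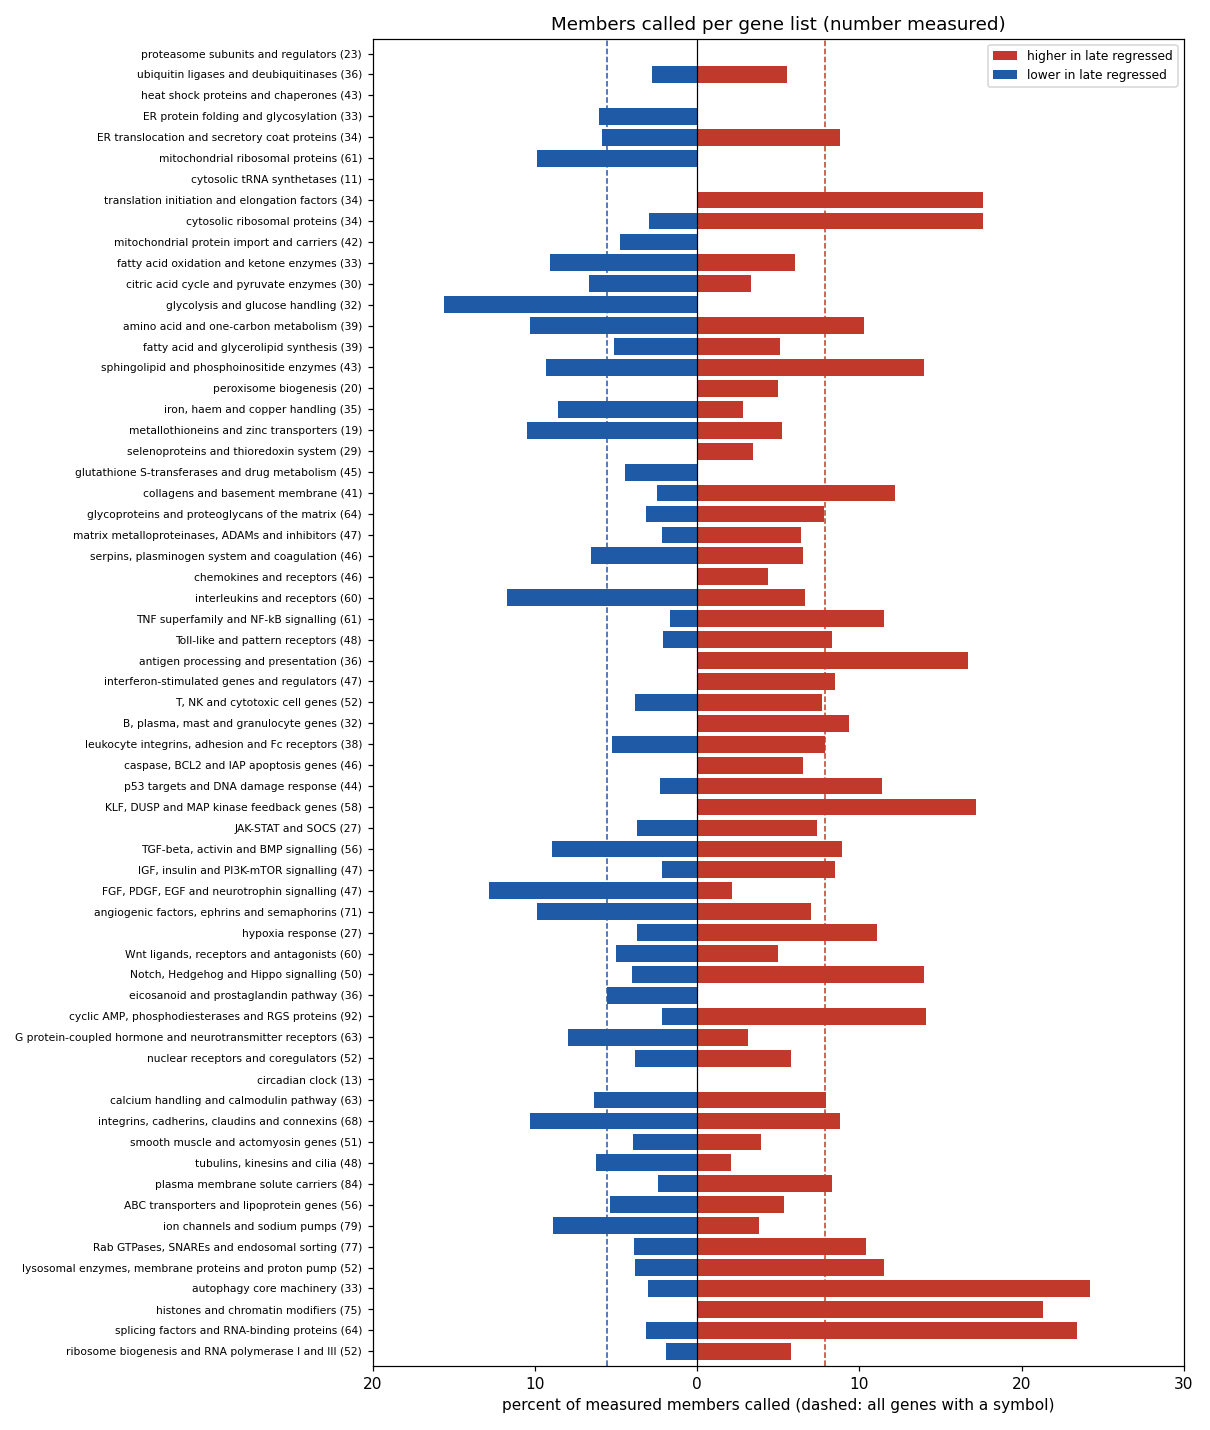
Bars give the percent of measured members of each of the 63 lists that limma called higher (red, to the right) or lower (blue, to the left) in late regressed corpora lutea, with the number measured in parentheses. Dashed lines mark the 7.87% and 5.56% of all genes with a symbol that were called higher and lower.

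RNA processing genes rose more often than they fell. Of 64 measured splicing factors and RNA-binding proteins, 15 were called higher and 2 lower, against 7.87% and 5.56% of all genes, with a median difference of 0.26 where all genes had -0.02. The held calls were 5 higher and 2 lower, and without late regressed arrays 2 and 3 the counts were 4 and 0. CLK1, a kinase that phosphorylates the serine- and arginine-rich splicing factors, read 8.21, 8.52, 8.03 and 8.42 on the mid-late arrays and 9.12, 9.56, 9.76 and 9.34 on the late regressed arrays. Every late regressed array exceeded every mid-late array, by 0.60 between the nearest ones, and the difference was 1.15 (SE 0.16, adjusted p = 0.007). The late functional mean was 9.13 ± 0.26, also above the mid-late arrays. Its relative CLK4 differed by 0.79 (SE 0.14, adjusted p = 0.011), and on arrays 1 and 4 alone by 0.81. PTBP2, which binds pyrimidine tracts in pre-mRNA, rose from 5.02 ± 0.22 to 6.19 ± 0.48, a difference of 1.17 (SE 0.22, adjusted p = 0.012), with array 2 the highest at 6.82 and array 4 the lowest at 5.74. RBM5 and CIRBP, RNA-binding proteins, were the remaining held increases (RBM5 (0.69) and CIRBP (0.65)). Members of the hnRNP family, which coat nascent transcripts, rose too, with HNRNPH3 (0.70), HNRNPDL (0.67), HNRNPA0 (0.61), HNRNPM (0.59) and HNRNPK (0.31) called. SF3B3, a large subunit of the SF3b complex that recognises the branch point, went the other way. Its levels were 10.48, 10.49, 10.05 and 9.88 on the mid-late arrays and 9.43, 8.38, 8.56 and 9.37 on the late regressed arrays. The lowest were arrays 2 and 3, all 4 late regressed arrays lay below the mid-late range, and it fell by 1.29 (SE 0.24, adjusted p = 0.012). SF3B3 was read by a probe set of a type that can bind related transcripts. The other member that fell was SRSF12 (-0.64). Without late regressed arrays 2 and 3 the SF3B3 call ended narrowly, at -0.83 (adjusted p = 0.0504), and that of PTBP2 was narrowly kept, at 0.81 (adjusted p = 0.0499).

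Chromatin genes of the list moved in 1 direction among those called. In the list of 75 histones and chromatin modifiers, 16 were called higher (21.3%, against 7.87% of all genes) and 0 lower. The median difference was 0.17, and 6 of the calls were held. Not all such genes were listed. The linker histone H1-3, given below, was a held decrease outside the list. Over all 8 measured CHD genes 1 was higher and 1 lower (CHD1L), and over all 15 PHF genes 2 were higher and 1 lower (PHF19). On arrays 1 and 4 alone, 2 list members were called higher. EP300, a histone acetyltransferase and coactivator, read 8.55, 8.51, 8.72 and 8.93 on the mid-late arrays and 9.28, 9.47, 9.58 and 9.27 on the late regressed arrays. Its late regressed values lay close together and above all mid-late arrays. The difference was 0.73 (SE 0.10, adjusted p = 0.007), and 3 of its other 5 probe sets were also called higher. Its paralogue CREBBP was called at 0.78, in 5 of the 8 fits that left out 1 array. CBX7, a Polycomb protein that reads methylated histone H3, had mid-late values of 5.45, 5.41, 5.47 and 5.44 and late regressed values of 6.04, 7.14, 6.56 and 6.85. The mid-late arrays were nearly equal, the late regressed ones were spread widely above them, and the difference was 1.21 (SE 0.25, adjusted p = 0.017). KMT2D, which methylates lysine 4 of histone H3, rose by 0.69 (SE 0.12, adjusted p = 0.011). The demethylase KDM7A rose by 0.93 (SE 0.18, adjusted p = 0.014), the methyltransferase SETD2 by 0.59 and the histone gene H3-3B by 0.58, all held. The KDM demethylase family as a whole had 5 of 14 measured members called higher and 0 lower, namely KDM2B (0.97), KDM3A (0.95), KDM7A (0.93), KDM5C (0.61) and KDM3B (0.79). TET2, which oxidises methylated cytosine, was called at 1.12, in 4 of 8 fits. Among these, calls ended without late regressed arrays 2 and 3 for CBX7 at 1.0, KDM7A at 0.61 and KMT2D at 0.49. That of EP300 did not, at 0.60.

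**Figure D3:**
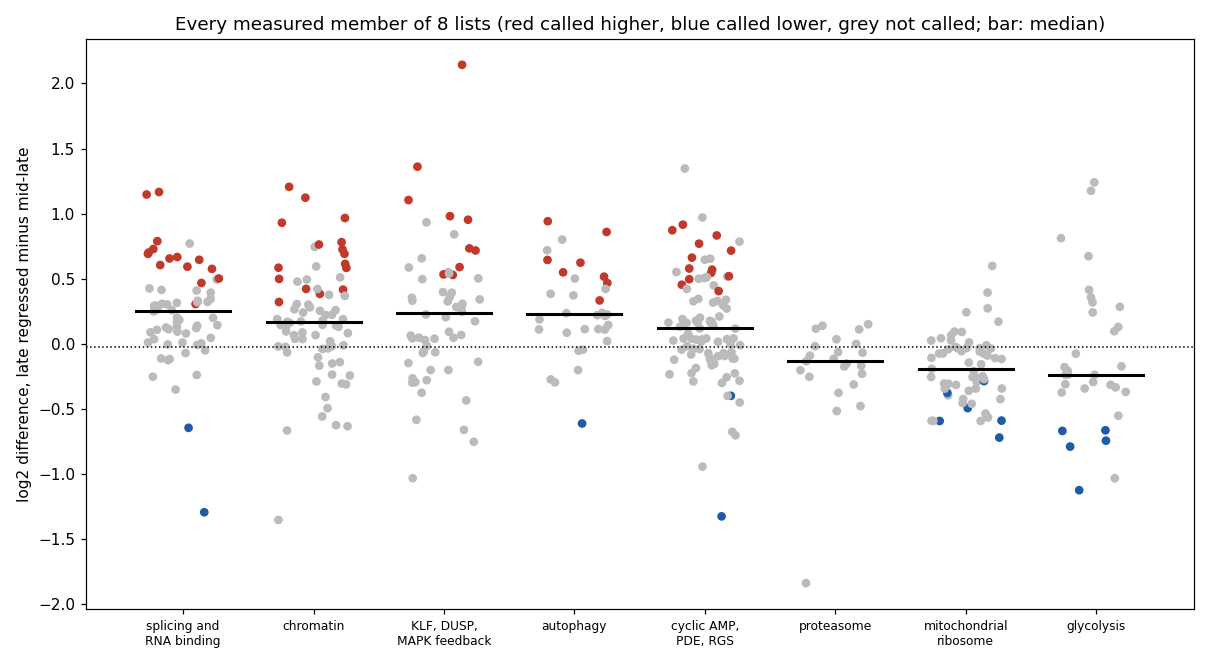
Every measured member of 8 lists is a point at its log2 difference, late regressed minus mid-late, coloured by its limma call, with the list median as a bar and the median of all genes, -0.02, as the dotted line. The medians of the first 5 lists lie at 0.12 to 0.26 and those of the proteasome, mitochondrial ribosome and glycolysis lists at -0.13 to -0.24.

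Calls among translation genes were counted in 3 lists. Of 34 translation initiation and elongation factors, 6 were called higher and 0 lower, and of 34 cytosolic ribosomal proteins 6 were higher and 1 lower. Of 61 mitochondrial ribosomal proteins, 0 were higher and 6 lower. The list medians were 0.07, 0.18 and -0.19. The difference between lists was not tested. For the mitochondrial list the lower share was 9.84% against 5.56% of all genes. EIF4A2, a helicase of the cap-binding complex, was the largest of the 3 held increases among the factors. Its levels were 11.14, 11.19, 11.20 and 11.33 on the mid-late arrays and 11.68, 11.74, 11.53 and 11.80 on the late regressed arrays. The groups were separated by 0.20, the difference was 0.47 (SE 0.08, adjusted p = 0.0093), and 3 of its other 5 probe sets were called higher. EIF3E, a subunit of the scaffold factor eIF3, rose by 0.39 (SE 0.08, adjusted p = 0.018), and EIF1, which guards start codon choice, by 0.37 (SE 0.07, adjusted p = 0.015). The subunits EIF3H and EIF3F and the factor EIF4G2 were called at 0.42, 0.31 and 0.43. The largest of these changes, that of EIF4A2, is 1.39-fold. RPL35A read 12.35, 12.85, 12.92 and 12.84 on the late regressed arrays, where array 1 lay within the mid-late range of 12.16 to 12.36. Its difference was 0.50 (SE 0.14, adjusted p = 0.048), and the call was lost without mid-late array 1, 2, 3 or 4 or late regressed array 2, 3 or 4 (0.44 to 0.53). RPL19 moved the opposite way, by -0.57 (SE 0.12, adjusted p = 0.019), and was lost without mid-late array 1 (-0.53). No call in the cytosolic ribosomal list was held. MRPS33, of the small mitochondrial subunit, fell by 0.72 (SE 0.16, adjusted p = 0.02), from 9.79 ± 0.07 to 9.07 ± 0.39. The large-subunit protein MRPL33 fell by 0.59 (SE 0.14, adjusted p = 0.027). The other 4 were MRPL55 (-0.59), MRPL41 (-0.49), MRPS12 (-0.38) and MRPS16 (-0.29). None of the 6 was held. The call of MRPS33 was lost without mid-late array 2 (-0.69), and that of MRPL33 without mid-late array 2, 3 or 4 or late regressed array 3 (-0.61 to -0.52). The lower mitochondrial ribosomal calls numbered 0 without late regressed arrays 2 and 3, although the median stayed at -0.18. Calls among the initiation factors ended without those arrays for EIF1 at 0.28 and EIF3E at 0.24, and EIF4A2 stayed called at 0.52. Of 52 ribosome biogenesis and RNA polymerase I and III genes, 3 were higher and 1 lower. NOL8, a nucleolar protein, was called at 0.66 and LTV1, which helps export the small subunit, at -0.65. Both had overlapping groups. The call of NOL8 was lost without mid-late array 1, 2, 3 or 4 or late regressed array 2 or 3 (0.52 to 0.76), and that of LTV1 without mid-late array 2, 3 or 4 or late regressed array 2, 3 or 4 (-0.70 to -0.53). Of 11 cytosolic tRNA synthetases none was called, with a median of -0.09.

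The lists of protein quality control genes had few members called. None of 23 measured proteasome subunits and regulators was called, although 17 of the 23 differences were below 0, with a median of -0.13. None of 43 listed heat shock proteins and chaperones was called either, with a median of 0.05. Of 19 measured DNAJC genes, 2 were higher and 1 lower, with 2 of these calls held, and the called ones lay outside the list. Among 36 listed ubiquitin ligases and deubiquitinases, 2 were called higher and 1 lower, none held. UBE3A, a ubiquitin ligase, was called at 0.45 (SE 0.09, adjusted p = 0.017) and lost the call without mid-late array 2 (0.41). FBXO32, the ubiquitin ligase known as atrogin-1, was called at -0.54 (SE 0.16, adjusted p = 0.049), and its call was lost in 7 of the 8 fits, without mid-late array 2, 3 or 4 or late regressed array 1, 2, 3 or 4 (-0.61 to -0.47). The scaffold CUL4A was called at 0.44. Of 35 measured USP genes, a deubiquitinase family, 5 were higher (14.3%, against 7.87% of all genes) and 0 lower, with 3 held. Of 47 RNF genes 6 were higher (12.8%) and 2 lower. The called USP and RNF genes lay outside the list. In the list of endoplasmic reticulum (ER) folding and glycosylation, 2 of 33 members were lower and 0 higher, with a median of 0.00. ALG3, a mannosyltransferase of the N-glycan precursor, fell by 0.37 (SE 0.08, adjusted p = 0.017), and the call ended without late regressed arrays 2 and 3, at -0.41 (adjusted p = 0.0516). MOGS, which trims the first glucose from the glycan, was called at -0.39 with a gap of 0.01 between the groups, and the call was lost without mid-late array 1, 2, 3 or 4 or late regressed array 3 or 4 (-0.41 to -0.31). The ER membrane protein complex, which inserts membrane proteins, had 4 of its 8 measured EMC genes called lower and 0 higher, namely EMC9 (-0.74), EMC4 (-0.38), EMC3 (-0.40) and EMC7 (-0.48). The values of EMC9 were 6.73, 6.94, 6.70 and 6.96 on the mid-late arrays and 6.52, 6.15, 5.62 and 6.09 on the late regressed arrays. Among the 4, 1 was held. Of 34 genes of ER translocation and secretory coats, 3 were higher and 2 lower, with a median of -0.02. SEC24B, a cargo receptor of the COPII coat, rose by 0.77 (SE 0.16, adjusted p = 0.016) and lost the call without late regressed arrays 2 and 3, at 0.45 (adjusted p = 0.0505). SRP68, of the signal recognition particle, was called at 0.83 with array 4 within the mid-late range, and lost the call without mid-late array 1, 2 or 3 or late regressed array 2 or 3 (0.65 to 0.83).

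Autophagy genes had the highest share of higher calls among the 63 lists. Of 33 measured members of the core machinery, which builds the vesicles that carry cell contents to lysosomes, 8 were called higher (24.2%) and 1 lower, against 7.87% and 5.56% of all genes. The median was 0.23, and 4 of the higher calls were held. On arrays 1 and 4 alone 2 were called higher, ATG13 and WIPI2. ULK1 and ULK2 are the kinases that start autophagy. ULK2 is counted among these members, while ULK1 was placed in the mTOR signalling list and is not. ULK1 read 6.81, 6.95, 7.01 and 6.94 on the mid-late arrays and 7.43, 8.12, 7.71 and 7.55 on the late regressed arrays. No late regressed array fell in the mid-late range of 6.81 to 7.01, array 2 was the highest, and the difference was 0.78 (SE 0.13, adjusted p = 0.01). ULK2 read 5.0, 4.60, 5.09 and 4.79 on the mid-late arrays and 5.29, 5.95, 5.98 and 5.71 on the late regressed arrays. It also separated the groups, by 0.20, with a difference of 0.86 (SE 0.15, adjusted p = 0.011). ULK1 was read by a probe set that can bind related transcripts, and 1 other probe set was called in the same direction. ATG13, the partner of these kinases, rose by 0.47 (SE 0.10, adjusted p = 0.017), and RB1CC1, their scaffold, was called at 0.55 in 3 of 8 fits. ATG13 was 0.60 higher on arrays 1 and 4 alone, where it was called. WIPI2 and WDR45, which bind phosphatidylinositol 3-phosphate on the growing membrane, rose by 0.52 (SE 0.10, adjusted p = 0.012) and 0.33 (SE 0.07, adjusted p = 0.018). The lipid kinase PIK3C3 and its partner UVRAG were called at 0.64 and 0.62, and DRAM2 at 0.94. The exception was ATG4A, a protease that processes ATG8 proteins, called at -0.61. Without late regressed arrays 2 and 3 the calls of ULK2 at 0.63 and WDR45 at 0.30 ended, and those of ULK1 at 0.57 and WIPI2 at 0.40 did not. The kinase mTOR holds autophagy back, and among 47 genes of insulin-like growth factor (IGF), insulin and mTOR signalling 4 were higher and 1 lower, with a median of 0.05. TSC1, which restrains mTOR, read 6.83, 6.78, 6.90 and 6.95 on the mid-late arrays and 7.39, 8.08, 7.94 and 7.49 on the late regressed arrays. The late regressed arrays were all higher, arrays 2 and 3 most so, and the difference was 0.86 (SE 0.15, adjusted p = 0.011). IGF2R, which carries IGF-II and lysosomal enzymes to lysosomes, rose from 9.61 ± 0.16 to 10.50 ± 0.21, a difference of 0.89 (SE 0.14, adjusted p = 0.009), and was 0.94 higher on arrays 1 and 4. IGFBP4, an IGF-binding protein, was called at 0.60. All 4 higher calls of the list, ULK1 among them, were also made without late regressed arrays 2 and 3. IGFALS, which stabilises circulating IGF, was the lower one at -0.50.

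Lysosomal and endosomal genes had shares of higher calls not far from the 7.87% of all genes. Of 52 lysosomal enzymes, membrane proteins and proton pump subunits, 6 were higher (11.5%) and 2 lower, with a median of 0.24, and none was called without late regressed arrays 2 and 3. CTSK, a collagen-cleaving cathepsin, read 7.76, 8.02, 8.53 and 8.76 on the mid-late arrays and 9.42, 11.15, 11.66 and 10.10 on the late regressed arrays. Arrays 2 and 3 were highest at 11.15 and 11.66, and the groups did not overlap. The difference was 2.32 (SE 0.49, adjusted p = 0.018), and the call was lost without mid-late array 1 or 2 (2.15 to 2.23) and without late regressed arrays 2 and 3 together, at 1.50 (adjusted p = 0.1). MANBA, beta-mannosidase, was the held increase at 0.85 (SE 0.15, adjusted p = 0.01), from a mid-late mean of 4.18 ± 0.12 that is below 4.64, and without late regressed arrays 2 and 3 it was 0.60 (adjusted p = 0.0501). MAN2B1, PPT1, ARSB and LAPTM4A were called at 0.78, 0.75, 0.63 and 0.40, and NPC1 and the pump subunit ATP6V1D at -0.50 and -0.78. Of 77 Rab GTPases, SNAREs and endosomal sorting genes, 8 were higher (10.4%) and 3 lower, none held and none called without those arrays, with a median of 0.05. The higher ones included RAB7A (0.49) of late endosomes, RAB1A (0.49) of ER export and CHMP2B of the ESCRT-III complex (1.0 (SE 0.23, adjusted p = 0.023)). The lower ones were genes of regulated secretion. RAB27A, a GTPase of secretory granules, read 8.81, 9.23, 8.96 and 8.83 on the mid-late arrays and 8.54, 7.08, 7.95 and 8.03 on the late regressed arrays. Array 2 was lowest at 7.08 and array 1 was nearest to the mid-late range. It was called at -1.06 (SE 0.24, adjusted p = 0.023), with RAB3A at -0.70 and the vesicle SNARE VAMP2 at -0.95. The RAB27A call was lost without mid-late array 2 or 3 or late regressed array 3 (-1.07 to -0.97) and the CHMP2B call without mid-late array 1 or 2 or late regressed array 3 (0.84 to 0.98). RAB29, a lysosome-associated GTPase outside the lists, was a held increase at 1.53 (SE 0.23, adjusted p = 0.0074).

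Energy metabolism genes that were called mostly fell. Of 32 genes of glycolysis and glucose handling, 5 were called lower (15.6%) and 0 higher, with a median of -0.24, and 3 were held, all of them also called without late regressed arrays 2 and 3. PFKFB3 and PFKFB1 make fructose 2,6-bisphosphate, the activator of glycolysis. PFKFB3 read 5.41, 4.95, 4.93 and 5.21 on the mid-late arrays and 4.51, 4.27, 4.32 and 4.25 on the late regressed arrays. All late regressed arrays lay below 4.64 and below every mid-late array, and it fell by 0.79 (SE 0.12, adjusted p = 0.0073). PFKFB1 read 5.38, 5.78, 5.69 and 5.56 on the mid-late arrays and 5.05, 5.05, 4.76 and 4.90 on the late regressed arrays. It fell by 0.66 (SE 0.10, adjusted p = 0.0075), again with no overlap. Its probe set can bind related transcripts. UGP2, which makes UDP-glucose for glycogen, fell by 0.67 (SE 0.11, adjusted p = 0.0086) from a high level of 10.81 ± 0.21. ALDOC, an aldolase, and G6PC3, a glucose 6-phosphatase, were called at -1.12 and -0.74. Late functional values were low too, with 4.38 ± 0.15 for PFKFB3 and 10.30 ± 0.06 for UGP2. Of 33 fatty acid oxidation and ketone enzymes, 2 were higher and 3 lower, and they took different positions in the pathway. CPT1A, which loads fatty acids for entry into mitochondria, rose by 0.77 (SE 0.16, adjusted p = 0.018). ACADM, the medium-chain acyl-CoA dehydrogenase inside mitochondria, read 10.52, 10.71, 10.33 and 10.51 on the mid-late arrays and 10.01, 8.98, 8.96 and 9.35 on the late regressed arrays. Late regressed arrays 2 and 3 were lowest and array 1 highest, all below the mid-late range, and it fell by 1.19 (SE 0.22, adjusted p = 0.012). ACSS1, the mitochondrial acetyl-CoA synthetase, fell by 1.23 (SE 0.21, adjusted p = 0.01), and DECR1 was called at -0.77. The calls of CPT1A at 0.50 and ACADM at -0.84 ended without those arrays and that of ACSS1 did not, at -0.93. The list median was -0.18. Of 30 citric acid cycle and pyruvate enzymes, 1 was higher and 2 were lower. FH, fumarase, rose by 1.03 (SE 0.17, adjusted p = 0.0093), from 5.16 ± 0.13 to 6.20 ± 0.36. The malate dehydrogenases MDH2 and MDH1 were called at -0.67 and -0.35, neither held, and the mean over both MDH2 probe sets was 0.02. The MDH2 call was lost without mid-late array 2, 3 or 4 or late regressed array 2 or 3 (-0.66 to -0.59). Mitochondrial import genes and carriers had 0 higher and 2 lower of 42. TIMM10, an import chaperone, fell by 0.41 (SE 0.07, adjusted p = 0.011), but the mean over its 3 probe sets was 0.07. TIMM22, of the carrier translocase, was called at -0.46 and lost the call without mid-late array 1, 2, 3 or 4 or late regressed array 2 or 3 (-0.51 to -0.35).

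Lipid and amino acid genes gave larger single changes. Of 39 genes of fatty acid and glycerolipid synthesis, 2 were higher and 2 lower, with a median of -0.14. ELOVL6, which extends palmitate to stearate, read 9.21, 9.52, 9.68 and 9.76 on the mid-late arrays and 8.66, 6.80, 6.14 and 7.94 on the late regressed arrays. The lowest values were on arrays 2 and 3, array 1 came within 0.55 of the mid-late range, and the gene fell by 2.16 (SE 0.43, adjusted p = 0.015). On arrays 1 and 4 alone the difference was -1.25 (adjusted p = 0.033), and its other 3 probe sets were called lower. PNPLA8, a phospholipase, rose by 0.47 (SE 0.07, adjusted p = 0.0072). The fatty acid binding proteins FABP3 and FABP5 were called in opposite directions at -1.66 and 2.44, neither held, in 6 and 4 of the 8 fits that left out 1 array. Of 39 amino acid and one-carbon genes, 4 were higher and 4 lower. The held calls included a pair of enzymes that handle glutamate and ammonia. GLUL, glutamine synthetase, read 8.44, 8.40, 8.53 and 8.69 on the mid-late arrays and 9.48, 9.74, 10.08 and 9.50 on the late regressed arrays, and GLUD1, glutamate dehydrogenase, read 8.52, 8.54, 8.11 and 8.36 on the mid-late arrays and 7.65, 7.88, 7.10 and 7.21 on the late regressed arrays. GLUL was higher in every late regressed array, with a difference of 1.18 (SE 0.15, adjusted p = 0.0055), and GLUD1 was lower in every one, with a difference of -0.92 (SE 0.19, adjusted p = 0.016). On arrays 1 and 4 alone they were 0.98 and -0.95, both called. No other probe set of either gene was called in the same direction, of 5 in all for GLUL and 2 for GLUD1. The polyamine genes SMS, SAT1 and SAT2 were called higher at 0.72, 0.53 and 0.68. The transaminases BCAT2 and GPT2 and the methionine enzyme MAT1A were called lower, at -0.87, -0.47 and -0.37. Of 43 sphingolipid and phosphoinositide genes, 6 were higher and 4 lower, with a median of 0.07. PLCL1, a phospholipase C-like protein, fell by 1.22 (SE 0.25, adjusted p = 0.016) and PIK3R5, a regulatory subunit of the G protein-coupled PI3 kinase, by 0.49 (SE 0.08, adjusted p = 0.0097). INPP4A, a phosphoinositide phosphatase, rose by 0.58 (SE 0.10, adjusted p = 0.011). KDSR and CERK, of ceramide synthesis and phosphorylation, were called higher (KDSR (0.80) and CERK (0.52)) and SPTLC3, of the first step of that pathway, lower (-0.75). Without late regressed arrays 2 and 3, calls ended for PLCL1 at -0.82 and INPP4A at 0.49.

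Cofactor, metal and redox lists had few calls. Both enzymes that start haem synthesis fell. ALAS1 read 9.54, 10.77, 9.56 and 9.94 on the mid-late arrays and 9.20, 7.73, 8.15 and 8.53 on the late regressed arrays, and it fell by 1.55 (SE 0.36, adjusted p = 0.025). All late regressed values lay under the mid-late range, arrays 2 and 3 most. The call was lost without mid-late array 2 or late regressed array 3 (-1.46 to -1.28). ALAD, the next enzyme, fell by 0.95 (SE 0.19, adjusted p = 0.014). Of the 35 genes of iron, haem and copper handling these were 2 of 3 lower, with SLC31A1, a copper importer, at -0.40. The 1 higher gene was FTL, ferritin light chain, at 0.75. Haem serves the cytochrome P450 enzymes, and CYP3A5, a P450 outside the lists, fell by 1.88 (SE 0.33, adjusted p = 0.01) from a mid-late mean of 12.08 ± 0.36. The calls of that family went both ways. Of 35 measured CYP genes 3 were higher (8.57%) and 5 lower (14.3%), against 7.87% and 5.56% of all genes, with a median of -0.09. The metallothioneins MT1E and MT3, small metal-binding proteins, were called in opposite directions at 1.0 (SE 0.22, adjusted p = 0.021) and -1.22 (SE 0.34, adjusted p = 0.046), in a list of 19 genes with 1 higher and 2 lower. MT1E was read by a probe set of a type that can bind related transcripts. The MT1E call was lost without mid-late array 2 or late regressed array 3 (0.89 to 0.93) and the MT3 call without mid-late array 1, 2, 3 or 4 or late regressed array 2, 3 or 4 (-1.39 to -1.02). SLC39A8, a zinc importer, was called at -0.64. SESN1, a stress-induced sestrin, was the single call of 29 selenoprotein and thioredoxin system genes, and it was held at 0.81 (SE 0.16, adjusted p = 0.016). In glutathione S-transferases and drug metabolism, 2 of 45 were lower and 0 higher, 13 being low signal. They were the aldehyde dehydrogenases ALDH2 (-0.45) and ALDH5A1 (-0.39). The ALDH2 call was lost without mid-late array 1, 2, 3 or 4 or late regressed array 2 or 3 (-0.49 to -0.37), and that of ALDH5A1 without mid-late array 1, 2, 3 or 4 or late regressed array 1, 2 or 3 (-0.44 to -0.29). Of 20 peroxisome genes only ABCD4 was called, at 0.50 (SE 0.11, adjusted p = 0.019), and its call was lost without mid-late array 2 or late regressed array 3 (0.45 to 0.46). Over all 16 measured ALDH genes 3 were lower and 0 higher. Of these genes, ALAS1 at -1.08, ALAD at -0.81, CYP3A5 at -1.75 and SESN1 at 0.72 were not called on arrays 1 and 4 alone.

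**Figure D4:**
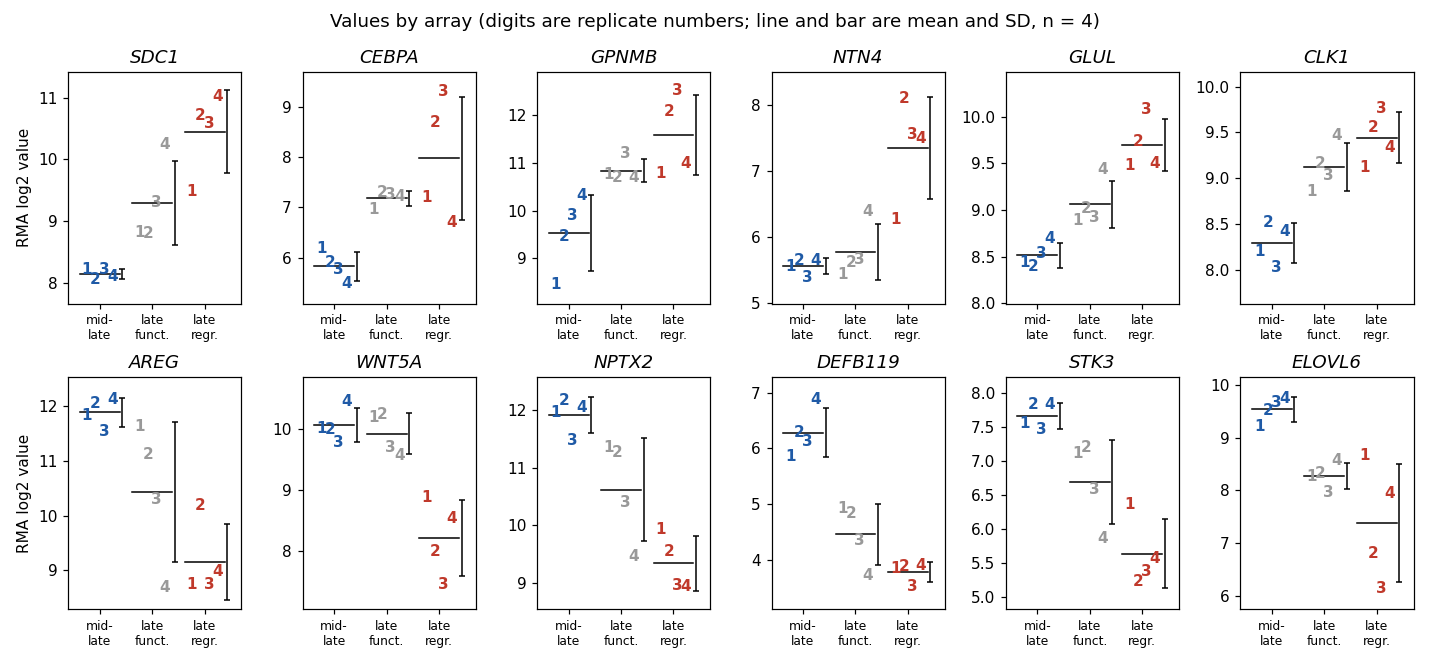
RMA log2 values of 12 genes on the y axes are printed as replicate numbers for the 4 mid-late (blue), 4 late functional (grey) and 4 late regressed arrays (red), with the mean as a line and the SD as a bar. All late regressed arrays lie above the mid-late arrays for the 6 genes of the upper row and below them for the 6 of the lower row.

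Listed genes of Krüppel-like factors (KLF), DUSP phosphatases and MAP kinase feedback were called in 1 direction. In this list 10 of 58 were called higher (17.2%, against 7.87% of all genes) and 0 lower, with a median of 0.24, and 5 were held. Without late regressed arrays 2 and 3, 3 were called. CEBPA, a differentiation factor that also acts in the ovary, read 6.18, 5.90, 5.77 and 5.48 on the mid-late arrays and 7.20, 8.70, 9.30 and 6.71 on the late regressed arrays. Arrays 2 and 3 were far above arrays 1 and 4, and all 4 exceeded the mid-late arrays. The difference was 2.14 (SE 0.46, adjusted p = 0.018), with both other probe sets called higher, and 1.12 (adjusted p = 0.029) on arrays 1 and 4 alone. CEBPD, a factor of the same family, rose by 1.36 (SE 0.28, adjusted p = 0.016). ZFP36L2, which binds AU-rich messages and hastens their decay, read 9.89, 9.48, 9.81 and 9.82 on the mid-late arrays and 10.57, 11.10, 11.16 and 10.59 on the late regressed arrays. It separated the groups by 0.67, with a difference of 1.10 (SE 0.15, adjusted p = 0.0068), and its relative ZFP36L1 was called at 0.72. Among 15 measured KLF genes 5 were called higher and 0 lower, with a family median of 0.50. KLF11 was held at 0.98 (SE 0.18, adjusted p = 0.011). KLF4, KLF13, KLF2 and KLF3 were called at 0.95, 0.73, 0.53 and 0.53. The phosphatase DUSP22 was held at 0.59. Over all 20 measured DUSP genes the calls went both ways, with 2 higher (DUSP22 and DUSP23) and 2 lower (DUSP21 and DUSP29). Calls of CEBPD at 0.83 and KLF11 at 0.68 ended on arrays 1 and 4 alone, and ZFP36L2 was called at 0.83.

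Cyclic AMP carries the LH signal in luteal cells. Of 92 genes of the cyclic AMP pathway, phosphodiesterases and regulators of G protein signalling, 13 were higher and 2 lower, with a median of 0.12. The higher share was 14.1% against 7.87% of all genes, and without late regressed arrays 2 and 3 the higher calls numbered 2. The 3 held ones included both adenylyl cyclases that were called. ADCY4 read 8.14, 8.22, 8.21 and 8.17 on the mid-late arrays and 8.64, 8.73, 8.74 and 8.63 on the late regressed arrays. The arrays within each group lay close together, and a difference of 0.50 (SE 0.07, adjusted p = 0.0072) stood clear of the spread. ADCY6 rose by 0.57 (SE 0.12, adjusted p = 0.018), and CRTC2, a coactivator of the cyclic AMP-responsive factor CREB, by 0.58 (SE 0.09, adjusted p = 0.0074), with CRTC3 called at 0.55. The phosphodiesterases PDE10A and PDE4A, which break cyclic AMP down, were called higher (PDE10A (0.92) and PDE4A (0.83)) and PDE4D lower (-0.40). ARRB2, an arrestin that ends receptor signals, was called at 0.87 and RGS2 at -1.32. Of 9 measured AKAP genes, which anchor protein kinase A, 3 were higher and 0 lower, AKAP8 (0.45), AKAP8L (0.51) and AKAP17A (0.62). ADCY4 and CRTC2 were also called without late regressed arrays 2 and 3, at 0.45 and 0.49, and ADCY6 was not, at 0.64 (adjusted p = 0.053). Among 63 G protein-coupled hormone and neurotransmitter receptors and their peptides, 2 were higher, 5 lower and 29 low signal. DRD2, the dopamine D2 receptor, read 5.95, 5.99, 5.70 and 5.74 on the mid-late arrays and 5.17, 5.25, 5.33 and 5.15 on the late regressed arrays, and CRHR1, the receptor of corticotropin-releasing hormone, read 6.43, 6.42, 6.40 and 6.37 on the mid-late arrays and 5.85, 5.84, 5.65 and 5.97 on the late regressed arrays. Both groups were tight and apart for both genes. DRD2 fell by 0.62 (SE 0.09, adjusted p = 0.007) and CRHR1 by 0.58 (SE 0.08, adjusted p = 0.0055), and both were called without late regressed arrays 2 and 3. P2RY2 and ADCYAP1R1 were called at 0.80 and 0.42.

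Calcium pathway genes included a pair of transcription factors of 1 family that moved apart. Of 63 genes 5 were higher and 4 lower, with a median of -0.02. NFATC4, a calcineurin-dependent factor, read 9.35, 9.61, 8.14 and 8.39 on the mid-late arrays and 7.38, 5.96, 6.45 and 7.66 on the late regressed arrays. Mid-late arrays 1 and 2 were well above arrays 3 and 4, late regressed array 4 came closest to them, and it fell by 2.01 (SE 0.41, adjusted p = 0.016). NFATC1 read 5.70, 5.41, 6.0 and 6.06 on the mid-late arrays and 6.57, 7.41, 6.84 and 6.52 on the late regressed arrays. It was higher in all late regressed arrays, by 1.04 (SE 0.21, adjusted p = 0.017). The channel subunit CACNB3 rose by 0.98 (SE 0.12, adjusted p = 0.0055) and CAMKK2, a kinase upstream of AMP-activated kinase, by 0.71 (SE 0.09, adjusted p = 0.0055). CACNA2D1, another channel subunit, was called at -1.24. Leaving out late regressed arrays 2 and 3 ended the calls of NFATC4 at -1.35 and NFATC1 at 0.75 and not those of CACNB3 at 0.81 and CAMKK2 at 0.63.

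Growth factor genes carried the largest decrease among the held list members. Of 47 genes of FGF, PDGF, EGF and neurotrophin signalling, 6 were lower and 1 higher, and 22 were low signal. AREG, amphiregulin, a ligand of the EGF receptor that LH induces in the ovulatory follicle, read 11.83, 12.05, 11.53 and 12.13 on the mid-late arrays and 8.73, 10.18, 8.73 and 8.98 on the late regressed arrays. The highest late regressed array, array 2, lay 1.35 below the lowest mid-late array. The gene fell by 2.73 (SE 0.53, adjusted p = 0.014), which is 6.63-fold, and by 3.03 on arrays 1 and 4 alone. Late functional AREG values were 11.63, 11.11, 10.29 and 8.69, of which array 1 lay within the mid-late range, arrays 2 and 3 between the groups and array 4 just below all late regressed arrays. BTC, betacellulin, another ligand of that receptor, was called at -1.40 in 3 of 8 fits, and TGFA and NRG1 at -0.33 and -0.34. NGFR, the low-affinity neurotrophin receptor, was the higher one. It read 8.83, 8.13, 9.03 and 8.92 on the mid-late arrays and 9.58, 9.99, 11.05 and 11.63 on the late regressed arrays, with arrays 3 and 4 highest, and differed by 1.84 (SE 0.42, adjusted p = 0.024). The call was lost without mid-late array 1 or 2 or late regressed array 3 (1.64 to 1.87) and at 1.88 (adjusted p = 0.08) without late regressed arrays 2 and 3. Of 56 genes of TGF-beta, activin and bone morphogenetic protein (BMP) signalling, 5 were higher and 5 lower. TGIF1, a repressor of TGF-beta target genes, rose by 1.55 (SE 0.33, adjusted p = 0.018), from 5.80 ± 0.14 to 7.35 ± 0.73, with array 1 the lowest at 6.37. ID4, an inhibitor of basic helix-loop-helix factors that BMPs induce, read 10.62, 8.07, 7.60 and 8.80 on the late regressed arrays and 10.79 to 10.97 on the mid-late ones. Array 1 was near the mid-late range, and the call at -2.10 (SE 0.50, adjusted p = 0.027) was lost without mid-late array 1, 2, 3 or 4 or late regressed array 2 or 3 (-2.13 to -1.71). BAMBI, a decoy receptor, TGFB3 and BMPER were called higher at 1.06, 0.88 and 0.84. The call of TGIF1 ended without late regressed arrays 2 and 3, at 0.99 (adjusted p = 0.1).

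Wnt genes balanced at 3 higher and 3 lower of 60, of which 30 were low signal. WNT5A, a ligand mainly of beta-catenin-independent signalling, read 10.01, 9.99, 9.78 and 10.45 on the mid-late arrays and 8.88, 8.0, 7.45 and 8.53 on the late regressed arrays. Array 3 was lowest at 7.45, all late regressed arrays were at least 0.91 below the mid-late ones, and it fell by 1.84 (SE 0.28, adjusted p = 0.0073). The late functional mean of 9.92 ± 0.34 lay close to the mid-late mean of 10.06 ± 0.28. Both other probe sets of WNT5A were called lower, and the fall on arrays 1 and 4 alone was 1.36, also called. TCF7L2, a transcription factor of the canonical pathway, rose by 0.83 (SE 0.16, adjusted p = 0.013) with 3 of its other 5 probe sets called higher, and the corepressor TLE3 by 0.73 (SE 0.13, adjusted p = 0.011). AXIN2, a feedback inhibitor, was called at 1.06, and NKD1, another, fell by 0.43 (SE 0.09, adjusted p = 0.014) at a level near 4.64. Calls of TCF7L2 at 0.75 and NKD1 at -0.36 ended without late regressed arrays 2 and 3, and TLE3 stayed called at 0.60. Of 50 Notch, Hedgehog and Hippo genes, 7 were higher and 2 lower, with a median of 0.16. STK3, the Hippo kinase MST2, read 7.55, 7.83, 7.46 and 7.82 on the mid-late arrays and 6.37, 5.23, 5.38 and 5.57 on the late regressed arrays. The late regressed arrays lay 1.09 or more below the mid-late arrays, with array 1 the nearest, and it fell by 2.03 (SE 0.30, adjusted p = 0.0072). TEAD2, a DNA-binding partner of the Hippo effectors, rose by 0.96 (SE 0.20, adjusted p = 0.017). JAG2, a Notch ligand, rose by 0.64 (SE 0.11, adjusted p = 0.011) and DTX1, a Notch-binding ubiquitin ligase, by 0.82 (SE 0.12, adjusted p = 0.007), with the Notch effector RBPJ called at 0.69. HES5, a Notch target, fell by 0.47. All of STK3 at -1.70, TEAD2 at 0.60, JAG2 at 0.54 and DTX1 at 0.65 were called without late regressed arrays 2 and 3.

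Vascular guidance genes moved both ways. Of 71 angiogenic factors, ephrins and semaphorins, 5 were higher and 7 lower, with a median of 0.00 and 21 at low signal. NTN4, a netrin of basement membranes, read 5.55, 5.64, 5.38 and 5.64 on the mid-late arrays and 6.26, 8.10, 7.55 and 7.49 on the late regressed arrays. Late regressed array 1 was the nearest to the mid-late arrays, 0.62 above them, and the difference was 1.80 (SE 0.32, adjusted p = 0.011). EFNA1, an ephrin ligand, rose by 1.08 (SE 0.21, adjusted p = 0.014) while EPHA2, a receptor that binds it, fell by 0.75 (SE 0.15, adjusted p = 0.017). Mid-late values of EPHA2 were 7.82, 7.77, 7.83 and 8.01 and late regressed values 7.49, 6.87, 6.79 and 7.28, without overlap. TEK, the angiopoietin receptor, and VEGFB were called at 0.89 and 0.76, and ECE1, which makes endothelin, at -0.99. On arrays 1 and 4 alone, NTN4 was 1.32 (adjusted p = 0.058), EPHA2 -0.47 (adjusted p = 0.09) and EFNA1 0.80 (adjusted p = 0.046). Of the endothelial marker list 3 of 10 measured genes were called higher, and its mean was 8.32 to 8.46 on mid-late and 8.40 to 8.66 on late regressed arrays. The part of cell make-up in these values was not tested. Of 27 hypoxia response genes, 3 were higher and 1 lower. ARNT2, a partner of hypoxia-inducible factors, was called at 2.21 (SE 0.57, adjusted p = 0.034), with array 1 at 5.46 near the mid-late arrays and arrays 2 and 4 above 8. Its call was lost without mid-late array 1, 2, 3 or 4 or late regressed array 2, 3 or 4 (1.82 to 2.33).

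Calls in the collagen, glycoprotein and metalloproteinase lists were mostly higher. The higher shares were 12.2%, 7.81% and 6.38%, against 7.87% of all genes, so that only the first exceeded it. Of 41 collagens and basement membrane genes, 5 were higher and 1 lower, with a median of -0.01, and 2 were higher without late regressed arrays 2 and 3. The 3 held ones were laminin chains, a grouping seen only after their values. Of 9 laminin chains measured in the list 4 were called higher and 5 were not called, with LAMA3 at -0.41, LAMC1 at -0.20, LAMA4 at -0.02, LAMB4 at 0.00 and LAMC3 at 0.27. LAMB2 read 7.54, 7.76, 7.62 and 7.84 on the mid-late arrays and 8.42, 8.56, 8.40 and 8.71 on the late regressed arrays. Every late regressed array exceeded the mid-late ones, by 0.56 at the nearest, and the difference was 0.83 (SE 0.12, adjusted p = 0.007). LAMA2 rose by 0.75 (SE 0.14, adjusted p = 0.012) and LAMA1 by 0.72 (SE 0.14, adjusted p = 0.014), the latter from 4.13 ± 0.09, which is below 4.64. LAMB1 and COL4A4 were called at 0.71 and 0.95, and COL21A1 at -0.74. Of 64 matrix glycoproteins and proteoglycans, 5 were higher and 2 lower. SDC1, syndecan-1, a heparan sulfate proteoglycan of the cell surface, read 8.21, 8.06, 8.22 and 8.10 on the mid-late arrays and 9.48, 10.71, 10.58 and 11.02 on the late regressed arrays. Mid-late arrays lay close together, late regressed array 4 was the highest, and the nearest arrays were 1.25 apart. The SDC1 difference of 2.30 (SE 0.35, adjusted p = 0.0074), 4.91-fold, was 2.10 on arrays 1 and 4 alone, also called. Its probe set is of a type that can bind related transcripts, and 2 of its other 3 probe sets were called higher. The late functional values were 8.82, 8.79, 9.30 and 10.25. MATN2, an adaptor of matrix filaments, rose by 0.88 (SE 0.18, adjusted p = 0.015) and LTBP2, which associates with microfibrils, by 0.68 (SE 0.11, adjusted p = 0.0093). VCAN, versican, which gathers in the matrix around ovulation, was called at -1.0 in 2 of 8 fits. The call of LTBP2 was kept on arrays 1 and 4 alone, at 0.80, and those of MATN2 at 0.80 and LAMA1 at 0.59 were not. The fibroblast marker list moved beside these, with 4 of 9 measured genes higher and a mean of 8.18 to 8.97 on mid-late and 8.76 to 9.03 on late regressed arrays, which overlap. Its part in the matrix results was not tested. Of 47 metalloproteinases, ADAMs and inhibitors, 3 were higher and 1 lower. ADAM15 rose by 0.43 (SE 0.09, adjusted p = 0.015). MMP11, stromelysin-3, was called at 1.01 (SE 0.23, adjusted p = 0.024) and lost the call without mid-late array 1, 2 or 4 or late regressed array 3 (0.94 to 1.03). Of 46 serpin, plasminogen and coagulation genes, 3 were higher and 3 lower. PROS1, protein S, an anticoagulant and a bridge to dying cells, rose by 1.22 (SE 0.26, adjusted p = 0.019), from 8.27 ± 0.42 to 9.49 ± 0.54. FGL2 was called at 1.50 and lost without mid-late array 1 or 2 (1.38 to 1.40). PLAU, the urokinase gene, was called at 1.26 and TFPI, the tissue factor inhibitor, at -1.11. None of ADAM15 at 0.35, PROS1 at 1.12 and FGL2 at 0.93 was called without late regressed arrays 2 and 3.

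Adhesion and cytoskeletal genes were called in both directions. Of 68 integrins, cadherins, claudins and connexins, 6 were higher and 7 lower, and 32 were low signal. DSP, desmoplakin, rose by 1.30 (SE 0.28, adjusted p = 0.019). F11R, TJP1, PKP4, CLDN15 and ITGA3 were called at 0.64, 0.78, 0.58, 0.66 and 0.54. CLDN3, a tight junction claudin, read 8.87, 9.26, 9.39 and 9.45 on the mid-late arrays and 8.14, 5.60, 5.42 and 8.53 on the late regressed arrays. The late regressed arrays split, with arrays 2 and 3 below 6 and arrays 1 and 4 above 8, and the call at -2.32 (SE 0.60, adjusted p = 0.035) was lost without mid-late array 1, 2, 3 or 4 or late regressed array 2 or 3 (-2.44 to -1.82). The fall on arrays 1 and 4 alone was 0.91 and was called. Of 51 smooth muscle and actomyosin genes, 2 were higher and 2 lower, with a median of -0.04. PDLIM5, an actin-associated scaffold, fell by 0.68 (SE 0.11, adjusted p = 0.0083). Of its 8 other probe sets 1 was called lower, and another was called higher. PDLIM3 was called at -1.26 and lost without mid-late array 1, 2, 3 or 4 or late regressed array 2, 3 or 4 (-1.34 to -1.10). Of 48 tubulin, kinesin and cilium genes, 1 was higher and 3 were lower, none held. TUBA4A, an alpha tubulin, was called at -1.40 with late regressed array 1 inside the mid-late range, and lost without mid-late array 1, 2, 3 or 4 or late regressed array 2, 3 or 4 (-1.53 to -1.13). IFT27, an intraflagellar transport gene, was called at 0.79 and lost without mid-late array 1, 2, 3 or 4 or late regressed array 1 or 3 (0.66 to 0.87). The DSP call ended without late regressed arrays 2 and 3, at 1.01 (adjusted p = 0.099).

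Among transport genes a pair of related potassium channels moved apart. KCNK5 and KCNK3 encode potassium leak channels that respond to pH. KCNK5 read 5.51, 5.51, 5.84 and 5.30 on the mid-late arrays and 6.36, 7.67, 8.17 and 6.60 on the late regressed arrays, and KCNK3 read 8.43, 8.86, 8.40 and 8.60 on the mid-late arrays and 7.93, 7.42, 7.12 and 7.28 on the late regressed arrays. For KCNK5 arrays 2 and 3 were far above arrays 1 and 4 but all exceeded the mid-late arrays, and for KCNK3 array 1 was the nearest to them. KCNK5 rose by 1.66 (SE 0.34, adjusted p = 0.016) and KCNK3 fell by 1.13 (SE 0.21, adjusted p = 0.012). With only arrays 1 and 4 they differed by 0.94 (adjusted p = 0.036) and -0.97 (adjusted p = 0.074). The list of 79 ion channels and sodium pumps had 3 higher, 7 lower and 37 at low signal, with KCNE3 at -1.76 and the sodium pump subunit ATP1B1 at -0.64 among the lower ones. Of 84 listed plasma membrane solute carriers, 7 were higher (8.33%, against 7.87% of all genes) and 2 lower. Over all 279 measured SLC genes the balance was the other way, with 9 higher (3.23%) and 14 lower (5.02%, against 5.56% of all genes). SLC15A4, a histidine and peptide transporter of endolysosomes, was the held one of the list at 1.14 (SE 0.19, adjusted p = 0.01). SLC38A1, SLC38A4 and SLC38A9, of the amino acid transporter family SLC38, were called higher (SLC38A1 (1.06), SLC38A9 (0.85) and SLC38A4 (0.65)) and SLC38A10 lower (-0.66). SLCO2B1 was called at 1.08 with overlapping groups and lost without mid-late array 1, 2 or 4 or late regressed array 2 or 3 (0.83 to 1.11). Of 56 ABC transporter and lipoprotein genes, 3 were higher and 3 lower. ABCB1, the drug exporter P-glycoprotein, read 5.13, 5.15, 5.32 and 5.33 on the mid-late arrays and 5.85, 6.43, 6.41 and 6.19 on the late regressed arrays. All 4 late regressed arrays were above the mid-late range and the difference was 0.99 (SE 0.15, adjusted p = 0.0073). ABCG2, another exporter, was called at 0.69. APOC3, an apolipoprotein that slows triglyceride clearance, read 8.96, 8.85, 9.27 and 8.79 on the mid-late arrays and 8.01, 8.23, 7.79 and 8.0 on the late regressed arrays. The late regressed arrays lay 0.56 below the mid-late ones, and the fall of 0.96 (SE 0.11, adjusted p = 0.0055) was the same on arrays 1 and 4 alone. APOL2 fell by 1.15 (SE 0.24, adjusted p = 0.017) and was not called on arrays 1 and 4, at -0.66. Among 12 MFSD transporters 3 were higher and 0 lower, MFSD13A (0.51), MFSD5 (0.35) and MFSD1 (1.11).

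Immune genes that were called higher rose unevenly, with late regressed arrays 2 and 3 the highest for ERAP1, CD83, LY96 and CD48. Of the macrophage marker list none of 12 measured genes was called, although 9 of the 12 differences were above 0 and 6 exceeded 1. Those of TYROBP, CD53, CD68, AIF1, MRC1 and CD14 were 1.75, 1.70, 1.68, 1.60, 1.58 and 1.18 (adjusted p = 0.055 to 0.14), as large as many of the called differences that follow, while C1QA and C1QC were at -0.68 and -0.52. The mean of the list overlapped between groups, from 6.43 to 8.04 on mid-late and from 7.43 to 8.97 on late regressed arrays, with array 3 the highest. Its part in the results that follow was not tested. Antigen processing had 6 of 36 genes higher and 0 lower, with a median of 0.38 that fell to 0.14 without late regressed arrays 2 and 3, where none was called. ERAP1, which trims peptides for class I molecules, was the held one. Its levels were 7.04, 7.33, 7.28 and 7.40 on the mid-late arrays and 7.65, 8.47, 8.47 and 7.88 on the late regressed arrays, and the difference was 0.86 (SE 0.17, adjusted p = 0.016). CD83, a marker of mature dendritic cells, read 6.16, 6.49, 6.87 and 6.59 on the mid-late arrays and 7.08, 9.39, 10.13 and 7.47 on the late regressed arrays. Arrays 2 and 3 were far above arrays 1 and 4. It was called at 1.99 (SE 0.54, adjusted p = 0.041) and lost without mid-late array 1, 2, 3 or 4 or late regressed array 2 or 3 (1.45 to 2.11). CTSS, IFI30 and LGMN, lysosomal proteases and a reductase of antigen processing, were called at 1.88, 1.99 and 1.20. Among 48 Toll-like and pattern receptors, 4 were higher and 1 lower. TLR2, a receptor of bacterial lipoproteins, read 5.28, 5.36, 5.57 and 5.26 on the mid-late arrays and 5.98, 6.52, 7.18 and 7.28 on the late regressed arrays. Arrays 3 and 4 were highest, the groups did not overlap, and the difference was 1.37 (SE 0.25, adjusted p = 0.011). LY96, the cofactor MD-2 of the endotoxin receptor, read 4.31, 4.26, 4.38 and 4.47 on the mid-late arrays and 5.16, 7.57, 7.47 and 5.23 on the late regressed arrays. It was lifted most on arrays 2 and 3, was called at 2.0 (SE 0.49, adjusted p = 0.029) and lost without mid-late array 1, 2, 3 or 4 or late regressed array 2 or 3 (1.60 to 2.04), and differed by 0.84 (adjusted p = 0.025) on arrays 1 and 4 alone. TLR7 and NOD1 were called at 0.71 and 0.56, and the kinase IRAK1 at -0.57. Of 61 genes of the TNF superfamily and NF-kB signalling, 7 were higher and 1 lower. TNIP3, an NF-kB inhibitor, read 7.53, 7.68, 7.74 and 7.81 on the mid-late arrays and 8.17, 8.25, 8.22 and 8.27 on the late regressed arrays. The late regressed arrays lay close together above all mid-late arrays, with a difference of 0.54 (SE 0.07, adjusted p = 0.0067). IKBKB, the kinase that frees NF-kB, rose by 0.87 (SE 0.17, adjusted p = 0.015) and TNFRSF25, a death domain receptor, by 0.94 (SE 0.16, adjusted p = 0.01). NFKBIZ and the ligand TNFSF10 were called at 1.46 and 1.48, and the ligand TNFSF4 at -1.22. Calls of ERAP1 at 0.51, CD83 at 0.75, TLR2 at 1.26 and IKBKB at 0.56 ended on arrays 1 and 4 alone, and those of TNIP3 at 0.53 and TNFRSF25 at 0.65 did not.

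Interleukins and receptors were called higher in 4 and lower in 7 of 60 genes, 22 of them low signal. The higher ones were the receptors IL27RA, IL10RA and IL4R and the cytokine IL15 (IL27RA (1.41), IL10RA (1.29), IL15 (1.11) and IL4R (0.62)), none held. The held ones were lower and lay near 4.64. IL5RA, the receptor chain of interleukin 5, read 4.74, 4.92, 4.84 and 4.70 on the mid-late arrays and 4.17, 4.11, 4.20 and 4.24 on the late regressed arrays, and IL23A, a cytokine subunit, read 4.91, 4.86, 4.82 and 4.89 on the mid-late arrays and 4.62, 4.39, 4.43 and 4.53 on the late regressed arrays. IL5RA fell by 0.62 (SE 0.07, adjusted p = 0.0055) and IL23A by 0.38 (SE 0.07, adjusted p = 0.012). On arrays 1 and 4 alone IL5RA was called at -0.60 and IL23A was not, at -0.30. Their late regressed levels were all below 4.64, in arrays whose NC mean was 0.14 lower. STAT6, the factor that interleukin 4 activates, rose by 0.83 (SE 0.13, adjusted p = 0.0075) in a list of 27 JAK-STAT genes with 2 higher and 1 lower, and was also called on arrays 1 and 4 alone at 0.73. STAT5B was called at 0.54. PTPN1, a phosphatase of that pathway, was called at -0.62 and lost without mid-late array 1, 2, 3 or 4 (-0.64 to -0.60). The list of chemokines and receptors had 2 higher (4.35%, against 7.87% of all genes) and 0 lower of 46. Both were receptors of the chemokine CXCL12, namely CXCR4 at 0.82 (SE 0.22, adjusted p = 0.039) and ACKR3 at 0.88 (SE 0.25, adjusted p = 0.049). CXCR4 was lost without mid-late array 1 or 4 or late regressed array 1 or 3 (0.62 to 0.81), and ACKR3, whose groups overlapped, without mid-late array 1, 2 or 3 or late regressed array 2, 3 or 4 (0.65 to 0.91). Outside the list the chemokine CCL3 was also called higher, the single call of 21 measured CCL genes. Of 47 interferon-stimulated genes, 4 were higher and 0 lower, none held, with a median of 0.00. DTX3L was called at 0.74 and ISG20, an exonuclease, at 1.03. DTX3L was lost without mid-late array 2 or late regressed array 3 (0.65 to 0.76) and ISG20 without mid-late array 1, 2, 3 or 4 or late regressed array 2, 3 or 4 (0.95 to 1.13). Of 52 T, NK and cytotoxic cell genes, 4 were higher and 2 lower, 23 being low signal. CD48 was called at 1.89 (SE 0.46, adjusted p = 0.029), lost without mid-late array 1, 2 or 4 or late regressed array 2 or 3 (1.48 to 1.94). CD6, a T cell receptor, fell by 0.55 (SE 0.10, adjusted p = 0.011), from 5.04 ± 0.13 to 4.49 ± 0.15, which is below 4.64, and was not called on arrays 1 and 4 alone, at -0.43. Of 5 measured T and NK cell markers none was called. In the list of B, plasma, mast cell and granulocyte genes 3 of 32 were higher and 0 lower, with 17 low signal. They were SDC1, given above, BLNK (1.92) and S100A8 (2.40 (SE 0.55, adjusted p = 0.023)). S100A8, a calcium-binding protein of neutrophils, stood above 7 on arrays 1, 2 and 3 and at 4.50 on array 4, and was lost without mid-late array 2 or 4 or late regressed array 3 (2.20 to 2.38). Of 5 measured B and plasma cell markers none was called and 3 were low signal. Of 38 leukocyte integrins, adhesion molecules and Fc receptors, 3 were higher and 2 lower. SELP, P-selectin, and ICAM2, both of the endothelial surface, rose by 0.87 (SE 0.18, adjusted p = 0.015) and 0.62 (SE 0.13, adjusted p = 0.018). The gap between the groups for SELP was 0.02, and both calls ended without late regressed arrays 2 and 3, with SELP at 0.58 and ICAM2 at 0.45. LCP1, a leukocyte actin bundler, was called at 2.53. LILRB1 was lower by 0.65 on its brightest probe set but higher by 0.93 in the mean over its 4 probe sets, and the former call ended without those arrays, at -0.45.

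Apoptosis genes had about the share of higher calls of all genes. Of 46 caspase, BCL2 and IAP genes, 3 were higher (6.52% against 7.87%) and 0 lower, with a median of 0.05. DAPK1, a death-associated kinase, read 7.03, 7.30, 7.01 and 7.17 on the mid-late arrays and 7.72, 8.20, 8.42 and 7.87 on the late regressed arrays. The groups were 0.42 apart, the difference was 0.93 (SE 0.14, adjusted p = 0.0075), and on arrays 1 and 4 alone it was 0.67, the single call of the list there. BCL2L11, the pro-apoptotic BIM, read 5.65, 6.27, 6.38 and 6.68 on the mid-late arrays and 7.03, 8.48, 7.99 and 7.55 on the late regressed arrays. All late regressed arrays were above the mid-late ones. It was called at 1.52 (SE 0.34, adjusted p = 0.021) and lost without mid-late array 1 or 2 or late regressed array 3 (1.32 to 1.53), and another of its 6 probe sets was called lower. PMAIP1, the pro-apoptotic NOXA, was called at 1.51 in 2 of 8 fits. Of 44 p53 targets and DNA damage genes, 5 were higher and 1 lower. They were SESN1, given above, CCNG2 (1.16), GADD45B (1.09), PLK2 (0.80) and ERCC5 (0.41), with the glycosylase OGG1 at -0.35. CCNG2 was lost without mid-late array 1, 2, 3 or 4 or late regressed array 3 (1.07 to 1.20).

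Hormone-responsive and lipid mediator lists were short of calls. Of 52 nuclear receptors and coregulators, 3 were higher and 2 lower. PGRMC1, a membrane-associated progesterone-binding protein, read 11.59, 11.64, 11.42 and 11.51 on the mid-late arrays and 11.06, 10.89, 10.60 and 11.04 on the late regressed arrays. It was lower on all late regressed arrays, by 0.64 (0.013 as adjusted p), with all 3 other probe sets called lower. NR2F2, the orphan receptor COUP-TFII of stromal cells, read 9.33, 9.29, 9.33 and 9.48 on the mid-late arrays and 9.98, 10.11, 9.99 and 9.76 on the late regressed arrays. It rose by 0.60 (SE 0.09, adjusted p = 0.007) and was called on arrays 1 and 4 alone at 0.51. RORA was called at -1.16 and the retinol enzyme DHRS3 at 0.97. PGRMC1 was -0.49 (adjusted p = 0.07) on arrays 1 and 4 alone. Of 36 eicosanoid and prostaglandin genes, 0 were higher and 2 lower, none held. HPGD, which inactivates prostaglandins, was called at -1.77 (SE 0.45, adjusted p = 0.033). Mid-late array 2 at 8.58 and late regressed array 4 at 9.02 overlapped, all 4 other probe sets were called lower, and the call was lost without mid-late array 1, 3 or 4 or late regressed array 2 or 3 (-1.74 to -1.42). LTB4R, a leukotriene receptor, was called at -0.33 and lost without mid-late array 1 or 2 or late regressed array 3 (-0.33 to -0.27). None of 13 circadian clock genes was called, with a median of -0.09.

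Held decreases outside the lists that were named by rule, which leaves out DEFB122, HSD11B1, HSD3B2 and other genes whose results were known earlier, reached 6.08-fold. NPR3, the clearance receptor of natriuretic peptides, read 9.55, 10.32, 9.64 and 10.20 on the mid-late arrays and 8.40, 6.66, 6.19 and 8.04 on the late regressed arrays. Arrays 2 and 3 were lowest, the nearest arrays of the groups were 1.15 apart, and it fell by 2.60 (SE 0.46, adjusted p = 0.011). NPTX2, a neuronal pentraxin, read 11.96, 12.18, 11.48 and 12.06 on the mid-late arrays and 9.93, 9.54, 8.97 and 8.95 on the late regressed arrays. It was the lowest on arrays 3 and 4, all 4 late regressed arrays were at least 1.54 below the mid-late ones, and it fell by 2.57 (SE 0.38, adjusted p = 0.0073). NANOS1, an RNA-binding translational repressor, read 8.54, 9.66, 9.15 and 9.43 on the mid-late arrays and 7.59, 6.40, 6.25 and 6.35 on the late regressed arrays, and it fell by 2.55 (SE 0.31, adjusted p = 0.0055). Array 1 was the highest of the late regressed arrays, and below all mid-late arrays. DEFB119, a beta-defensin, read 5.84, 6.29, 6.12 and 6.88 on the mid-late arrays and 3.85, 3.87, 3.52 and 3.91 on the late regressed arrays. All late regressed values were below 4.64, and the gap of 1.94 to the mid-late arrays exceeded the spread in both groups. The difference was -2.50 (SE 0.27, adjusted p = 0.0055), and its late functional mean was 4.45 ± 0.55. Of 12 measured beta-defensin genes of the DEFB family 3 were lower and 0 higher, DEFB119 (-2.50), DEFB122 (-4.49) and DEFB125 (-0.29). SLAIN1, which promotes microtubule growth, fell by 2.37 (SE 0.33, adjusted p = 0.0068), and APPL2, an endosomal adaptor of adiponectin and insulin signalling, by 2.06 (SE 0.28, adjusted p = 0.0067). SLC17A4, a phosphate and organic anion transporter, fell by 2.04 (SE 0.34, adjusted p = 0.0091), to 4.29 ± 0.33, which is below 4.64. ADIRF, an adipogenesis regulator, fell by 1.61 (SE 0.25, adjusted p = 0.0077). The linker histone H1-3 fell by 1.69, to 4.12 ± 0.43, also below 4.64, the nuclease DCLRE1C, Artemis, by 1.68 and the dehydrogenase DHRS13 by 1.75. DHRS genes, short-chain dehydrogenases, had 3 of 11 measured members lower and 1 higher, and HSD genes, hydroxysteroid dehydrogenases, had 3 of 8 lower, HSD11B1 and HSD17B8 beside HSD3B2 (HSD11B1 (-3.13), HSD17B8 (-0.71) and HSD3B2 (-3.11)). Of these decreases, NPTX2 at -2.48, NANOS1 at -2.22, DEFB119 at -2.41, NPR3 at -1.70, SLAIN1 at -1.77 and APPL2 at -1.52 were also called without late regressed arrays 2 and 3, and SLC17A4 at -1.85 and CYP3A5 at -1.75 were not.

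Held increases named outside the lists included genes of phagocytes, vessels and matrix. GPNMB, a glycoprotein of lysosome-rich phagocytes, read 8.44, 9.45, 9.90 and 10.32 on the mid-late arrays and 10.77, 12.09, 12.52 and 10.99 on the late regressed arrays. GPNMB exceeded 12 on arrays 2 and 3, mid-late array 1 was the lowest of all, and the difference was 2.07 (SE 0.43, adjusted p = 0.017). PRAM1, an adaptor of myeloid cells, rose by 2.30 (SE 0.47, adjusted p = 0.017), from 7.86 ± 0.52 to 10.16 ± 1.15. METRNL, a secreted factor of fat and macrophages, read 5.47, 5.58, 5.62 and 5.49 on the mid-late arrays and 6.05, 8.32, 8.39 and 7.52 on the late regressed arrays. Array 1 was nearest to the mid-late arrays and the difference was 2.03 (SE 0.40, adjusted p = 0.014). AEBP1, a collagen-binding secreted protein, rose by 1.48 (SE 0.24, adjusted p = 0.0084), and ZNF469, a gene tied to collagen of the cornea, by 1.93 (SE 0.40, adjusted p = 0.017). CLEC14A, an endothelial surface lectin, read 7.11, 7.31, 7.26 and 7.26 on the mid-late arrays and 8.05, 9.39, 8.76 and 8.72 on the late regressed arrays, and rose by 1.50 (SE 0.27, adjusted p = 0.011). Its late regressed arrays all exceeded 8 and its mid-late arrays all lay below 7.4. DEPP1, a target of FOXO factors, rose by 1.58 (SE 0.26, adjusted p = 0.0091), with late functional values of 7.18, 6.83, 7.61 and 7.66 next to mid-late values of 7.06, 7.37, 7.39 and 7.04. TES, a focal adhesion protein, rose by 1.51, PLEKHA4 by 1.65, TMEM44 by 1.51 and TM2D3 by 1.49. Calls were kept on arrays 1 and 4 alone for PRAM1 at 1.38, ZNF469 at 1.26, PLEKHA4 at 1.24, DEPP1 at 1.37, RAB29 at 1.15, TM2D3 at 1.07 and AEBP1 at 1.15 and ended for GPNMB at 1.35, METRNL at 1.24, TES at 1.25, TMEM44 at 1.12 and CLEC14A at 1.15. PRAM1 and PLEKHA4 were read by probe sets that can bind related transcripts. Symbol families, genes that share a symbol stem, were counted from 8 measured members. They were named when at least 3 were called in 1 direction, at 3 or more times the share of all genes (7.87% higher, 5.56% lower). The high shares of families so named, here and above, follow from that choice. The USP, RNF, DNAJC, CHD, PHF, CCL, CYP, SLC and DUSP families were given beside lists outside that rule. In 3 more symbol families, 4 of 10 PRPF splicing genes were higher (PRPF39 (0.71), PRPF3 (0.66), PRPF18 (0.40) and PRPF6 (0.58)), 4 of 9 ZFP genes were higher (ZFP36L2 (1.10), ZFP36L1 (0.72), ZFP62 (0.74) and ZFP82 (0.35)), and 5 of 29 kinesin genes (KIF) were lower against 1 higher, the lower ones being KIF2C (-1.20), KIF25 (-0.51), KIF4A (-0.52), KIF24 (-0.34) and KIF23 (-0.52).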

How the data were processed

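RNA of whole corpora lutea was hybridised to one-colour rhesus arrays from Affymetrix. The authors deposited 1 table of log2 values, made with RMA per the submitters' processing notes. No source used here gives the RMA version, its settings, scan dates or batches. The quantile step that RMA commonly includes hides any change in the total RNA of a cell. The values carry no counts, so depth does not apply, and 4 arrays a group limit the precision.

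Of 52865 probe sets, 158 array controls were left out. Of the 52707 tested, 24956 have exactly 1 gene symbol in the platform annotation, 361 several and 27390 none. A gene was represented by its probe set with the highest mean over 12 arrays, which gave 12993 genes other than LOC identifiers. All 12 arrays entered 1 fit of group means in limma 3.58.1 (R 4.3.3, lmFit and eBayes) with no covariate, and calls were made at an adjusted p below 0.05. Values per array were compared with two-sided exact permutation tests. Of the 163 named genes, 28 were read by probe sets of a type that can bind related transcripts. Beside those flagged above, they include WNT5A, PGRMC1, APOC3, LAMA2, CAMKK2, KCNK5, TNFRSF25, EFNA1, EIF1, ALG3 and HPGD.

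The 63 lists, the 12 marker lists and the members were chosen with earlier results of these data known, so no count is independent support. Named genes followed a rule: per list, up to 4 held calls with the largest difference, then called members until 2 were named, and 12 held increases and 12 held decreases outside the lists. Further members given with a value but outside that rule were chosen after their values were seen. The rule left out genes whose own results were known earlier. Of the 163 named genes, 99 had several probe sets. Another probe set was called in the same direction for 42 of them and in the opposite direction for 2. Those with no other probe set called in the same direction include GLUL, INPP4A, CRHR1, NFATC1, KLF11, TEAD2, STAT6 and LAMA2. The remaining marker lists gave 1 of 5 neutrophil genes, 1 of 7 ovarian surface and mesothelial genes and 1 of 5 theca and stroma genes higher, 1 of 5 pericyte and smooth muscle genes lower, and none of 4 erythrocyte and 4 granulosa and follicle genes called.

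Alternatives were low-signal filters, other scalings, another prior, a fit of only these groups, a replicate block, array weights, covariates, a minimum of 2-fold, averaged probe sets of each gene and left-out arrays. The script was run on simulated data with 52707 probe sets and a spread taken from these arrays. It recovered 48.6% of 70 changes of 0.5, 84.7% of 72 changes of 1 and 98.3% of 58 changes of 2 log2 units. There were 18 false calls beside these. How an uneven group such as the late regressed one, or genes that move together, would alter these shares was not tested. The shares and false calls therefore check the script and are no estimate for the deposited arrays. A search of promoters for motifs was not run, because no promoter sequence was used here.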

Additional observations from a re-analysis of the deposited data

Results flagged for a closer look

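In each group of 4 arrays, the highest or lowest value was marked when its gap to the next array took a larger part of the group's range than Dixon's 95% critical value allows. Of 354 groups looked at, 326 of them of named genes, 14 values were marked, and chance marks about 1 in 20 groups. Late regressed array 1 held 7 of the 14, arrays 2 and 3 held 2 each and array 4 held 0, with 3 on mid-late arrays.

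Late regressed array 1 stood nearer to the mid-late level than its group for RPL35A (12.35, others 12.84 to 12.92), ISG20 (6.59, others 7.36 to 7.48), TES (7.58, others 8.70 to 8.84) and CAMKK2 (9.48, others 9.73 to 9.78), all low there, and for NANOS1 (7.59, others 6.25 to 6.40), SLC17A4 (4.78, others 4.10 to 4.19) and MT3 (7.75, others 7.10 to 7.16), all high there. AREG was highest on late regressed array 2 at 10.18, with the others at 8.73 to 8.98. DEFB119 was lowest on late regressed array 3 at 3.52, with the others at 3.85 to 3.91, all below the low-signal level.

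Among mid-late arrays, array 1 was lowest for PRAM1 at 7.09 (others 8.02 to 8.16), array 3 was highest for ISG20 at 6.49 (others 6.07 to 6.11), and array 4 was highest for the pericyte and smooth muscle marker mean at 9.48 (others 9.08 to 9.10). Of the array measures, the 3′ minus 5′ control difference was 2.52 on late regressed array 2 (others 0.46 to 0.70), and the NC mean was 3.48 on late regressed array 3 (others 3.57 to 3.58).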

How the results depend on the processing

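Limits: there are 4 arrays a group, late regressed arrays 2 and 3 stand apart, the NC mean differs between the groups, many lower list members lie near the NC level, and 27390 tested probe sets have no symbol. Leaving out arrays could not change the sign of the 119 held ones among the 163 named genes, whose groups did not overlap. All signs of the 163 named genes were kept under the alternatives tried, except when the probe sets of a gene were averaged. There TIMM10 (0.0653), MDH2 (0.0236) and LILRB1 (0.93) turned positive. The cause was not tested.

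The main count of 5282 called probe sets, 2854 higher and 2428 lower, became 1620, 948 and 672 with only these 2 groups in the fit, where 63 of the 163 named genes lost their call, 2839, 1658 and 1181 with array weights, and 684, 449 and 235 at 2-fold or more. It became 975, 643 and 332 without late regressed arrays 2 and 3, where fewer samples were tested and 72 of the 163 named genes were called. With the NC mean as a covariate it became 0, 0 and 0 in limma, with 4072 at an unadjusted p below 0.05. The lower count alone moved to 1590 with median centring, 1428 above the median signal and 1284 above the NC 95th percentile, where fewer probe sets were tested.

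Leaving out 1 array gave 2050 to 7532 calls in all, 1113 to 4235 higher and 845 to 3297 lower, and named genes kept their call in 122 to 159 of 163 cases. The lowest total came without mid-late array 2, and the totals without mid-late array 1 and late regressed array 3 were 2167 and 2199. Renewed quantile normalization (4457), a trended robust prior (5071) and the 3′ minus 5′ difference as a covariate (4788) kept the total within 1.5 times. With the replicate block the counts were 4349, 2569 and 1780. Deviations of same-numbered arrays correlated at -0.06, -0.12, 0.17 and -0.11 over the 4 numbers. Differently numbered arrays were not compared in this way, so these values cannot decide whether the numbers pair the arrays.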
